A study of Mus musculus with 4 samples.

Results

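The genes of DNA replication were followed in embryonic ureters whose WNT signals had been blocked. The group comprises 43 genes of 29924 gene names on the array. Its members were taken by gene symbol under a rule that uses no measured value, though earlier results of these data were known at the time. They cover the MCM2-7 helicase, origin recognition and licensing, the activation of the helicase, the DNA polymerases and primase, the sliding clamp and its loader, RPA, the maturation of Okazaki fragments, nucleotide supply and the chromatin of new DNA. All 43 passed the filter on dim probes, as did 22461 genes in all.

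To ask which transcripts depend on secreted WNT ligands, wild-type ureters, taken from NMRI mouse embryos at E12.5, were kept as explants for 18 h in medium with 10 µM IWP-2 or, as control, with the solvent DMSO (2 parts in 1000), both without fetal calf serum. IWP-2 is an inhibitor of Porcupine, the enzyme that attaches the lipid WNT ligands need to leave the cell, so that it acts on all cells of the explant. Each of 4 two-colour arrays compared RNA of 1 treated pool of ureters with RNA of 1 control pool, and the treated RNA carried the red dye on arrays 1 and 3 and the green dye on arrays 2 and 4. All embryos were wild type and carried no transgene, and their sex was not determined. Pooled whole ureters hold epithelium and mesenchyme with vessels, blood and nerve cells, and in such bulk RNA fewer cells in S phase and less transcript per cell cannot be told apart.

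DNA replication starts in G1 phase, when ORC, CDC6 and CDT1 load the ring-shaped MCM2-7 helicase onto origins. In S phase CDC45 and the GINS complex bind to MCM2-7 and turn it into the moving helicase, primase and polymerases copy the strands, PCNA clamps the polymerases to DNA and RPA covers the single strands. Most of these genes are transcribed in waves around the G1/S transition under E2F factors, and proliferation is a feature of the early, undifferentiated tissues of the ureter.

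A change is given as the log2 ratio of treated over control signal, where a negative value is a lower level with IWP-2, or as the percent of the control level that this ratio equals. The mean over the 4 arrays was tested gene by gene with limma, with a term for the dye order, and p-values were adjusted over all 22461 genes (Benjamini-Hochberg, threshold 0.05). The labels number the control and the treated RNA of each array separately, and the study's methods give n = 4 for the E12.5 explants. Its results and a figure legend speak instead of a pair of pools and of arrays for each stage. If an array repeats the RNA of another with the dyes exchanged, the spread between arrays is in part technical and the p-values are too small.

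WNT target genes, which report on the treatment, were lower, most of them by large amounts. All 8 genes of this list were lower on 4 of 4 arrays and passed the test, with a median log2 ratio of -1.52. The smallest fall was that of Lgr5, to 73.6% of control (log2 -0.44). Axin2, a direct target that damps the pathway, fell to 33.9% of control (log2 -1.48, -1.68, -1.57 and -1.53 on arrays 1 to 4, adjusted p = 1.23e-05 in limma). Sp5, a transcription factor gene under direct WNT control, fell to 15.1%. Under other ways of processing the data the log2 ratio ran from -1.63 to -1.07 for Axin2 and from -3.46 to -2.61 for Sp5.

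DNA replication genes were lower with IWP-2 almost throughout, by modest amounts. Of the 43 genes 38 fell, none rose and 5 did not pass the test, while 15.0% of all genes tested fell and 18.1% rose. All 43 means were below 0. At an unadjusted p under 0.05 in limma 41 of the 43 genes were lower and 0 higher, against 4553 and 5322 of the 22461 genes tested. The median of the 43 genes was -0.32, that is 80.3% of the control level, against a median of 0.0011 for all genes. The means ran from -0.61 for Cdc6 to -0.043 for Gins3. On the single arrays the median of the 43 genes was -0.26, -0.33, -0.37 and -0.39 (SD 0.055, n = 4), so that array 1 gave the smallest fall and array 4 the largest.

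The direction was shared by nearly every measurement. Of the 172 values of these genes on single arrays 167 were below 0 and 5 above it, and 39 of the 43 genes were lower on 4 of 4 arrays, as were 21.0% of all genes. For 36 genes every treated channel lay below every control channel, which held for 11.5% of all genes. With the brightest probe of each gene, only Cdc6 fell by 1.5-fold or more in the mean, and the other 37 genes that passed fell by less. This depends on the probe, since a second Rpa1 probe well above background gave -0.69. The plot of all members by array shows this: the points of most genes lie together left of 0. Only the mean of Cdc6 lies beyond -0.6, though points of further genes on single arrays do so too.

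**Figure D1:**
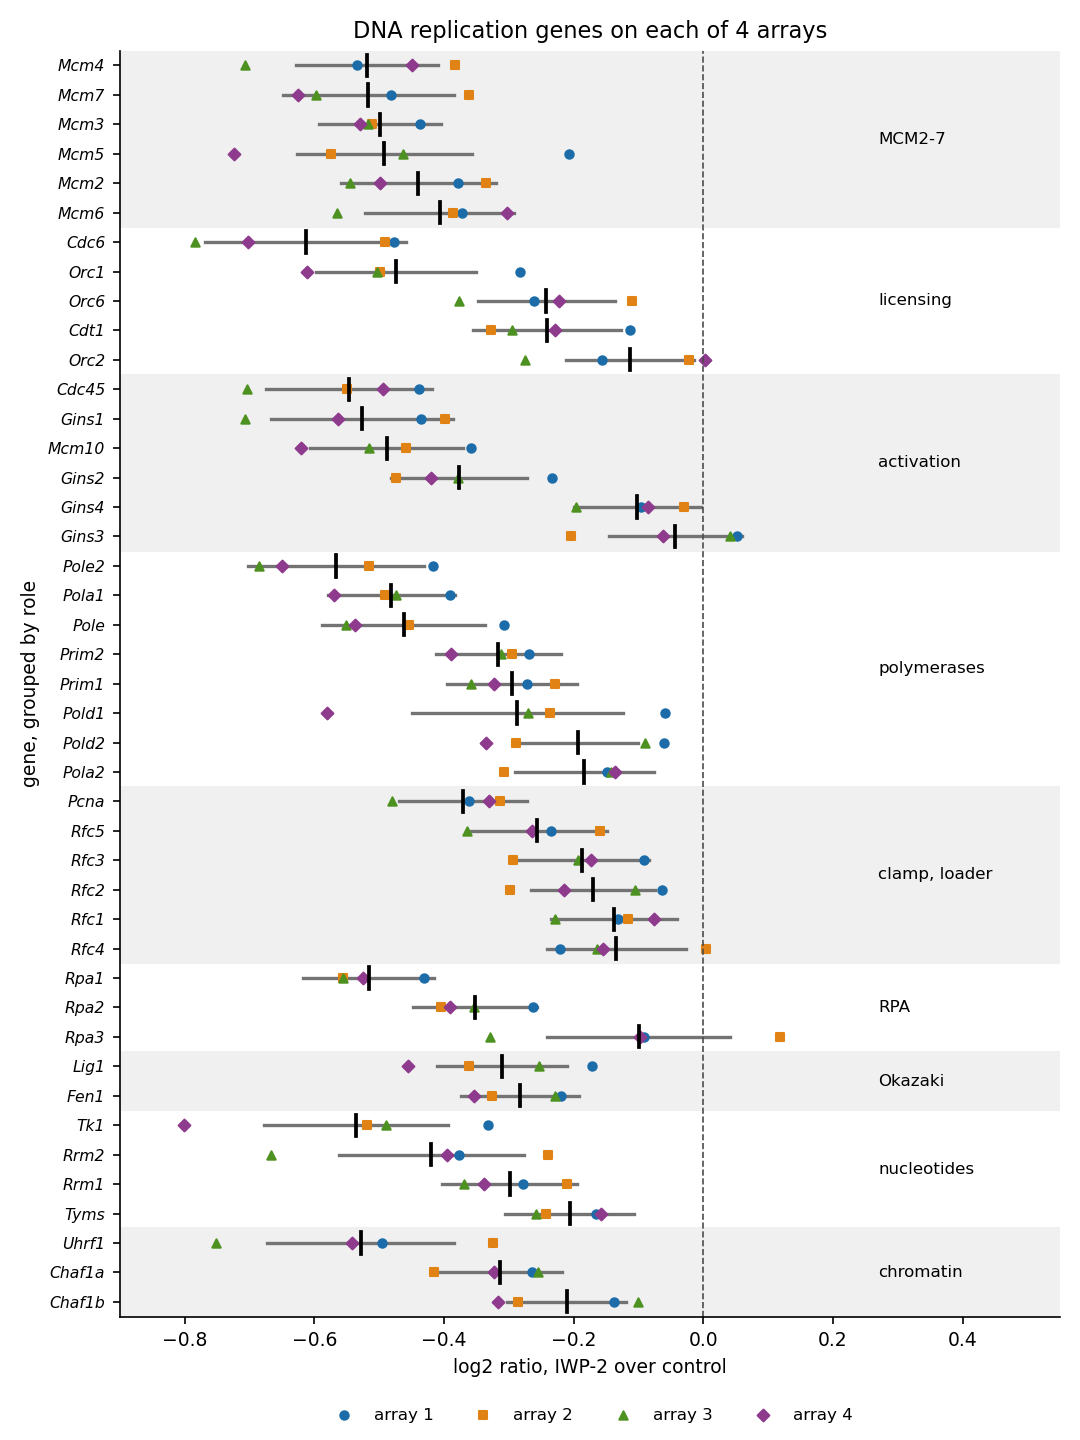
The log2 ratio of IWP-2 over control (x axis) of each of the 43 DNA replication genes (y axis, grouped by role, largest fall first), with a point for each of the 4 arrays, a black tick for the mean and a grey line for its 95% confidence interval in limma. 38 genes fell, and the values above 0 on single arrays belong to Orc2, Rfc4, Rpa3 and Gins3.

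The 6 genes of the MCM2-7 helicase fell together. Their means lay between -0.52 for Mcm4 and -0.41 for Mcm6, with a median of -0.50 (70.9% of control). For Mcm3 (probe at chr1:20793119-20793178, mm9) the log2 signal was 14.28, 14.12, 14.15 and 14.25 in the control channels of arrays 1 to 4 and 13.84, 13.61, 13.63 and 13.72 in the treated channels. The groups did not overlap, and the ratios of -0.44, -0.51, -0.52 and -0.53 were the most even of any member (SD 0.042, n = 4). Mcm3 fell to 70.8% of control (95% confidence interval 66.3% to 75.6%, adjusted p = 0.000411 in limma).

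Mcm7 (probe at chr5:138605925-138605984) gave 15.62, 15.50, 15.72 and 15.62 in the control channels and 15.14, 15.13, 15.12 and 15.00 in the treated channels, again with no overlap. Mcm5 (probe at chr8:77651350-77651410) varied more between arrays. Its ratios were -0.21, -0.57, -0.46 and -0.72 (SD 0.22), the largest spread among the 43 genes, with the fall smallest on array 1. The ratios of Mcm4 were -0.53, -0.38, -0.71 and -0.45, those of Mcm2 -0.38, -0.34, -0.55 and -0.50 and those of Mcm6 -0.37, -0.39, -0.57 and -0.30, so that no MCM2-7 gene had a value above -0.2 on any array. The subunits assemble into 1 ring, and the difference between Mcm4 and Mcm6, the largest and smallest fall, was -0.16, 0.0023, -0.14 and -0.15 on arrays 1 to 4.

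**Figure D2:**
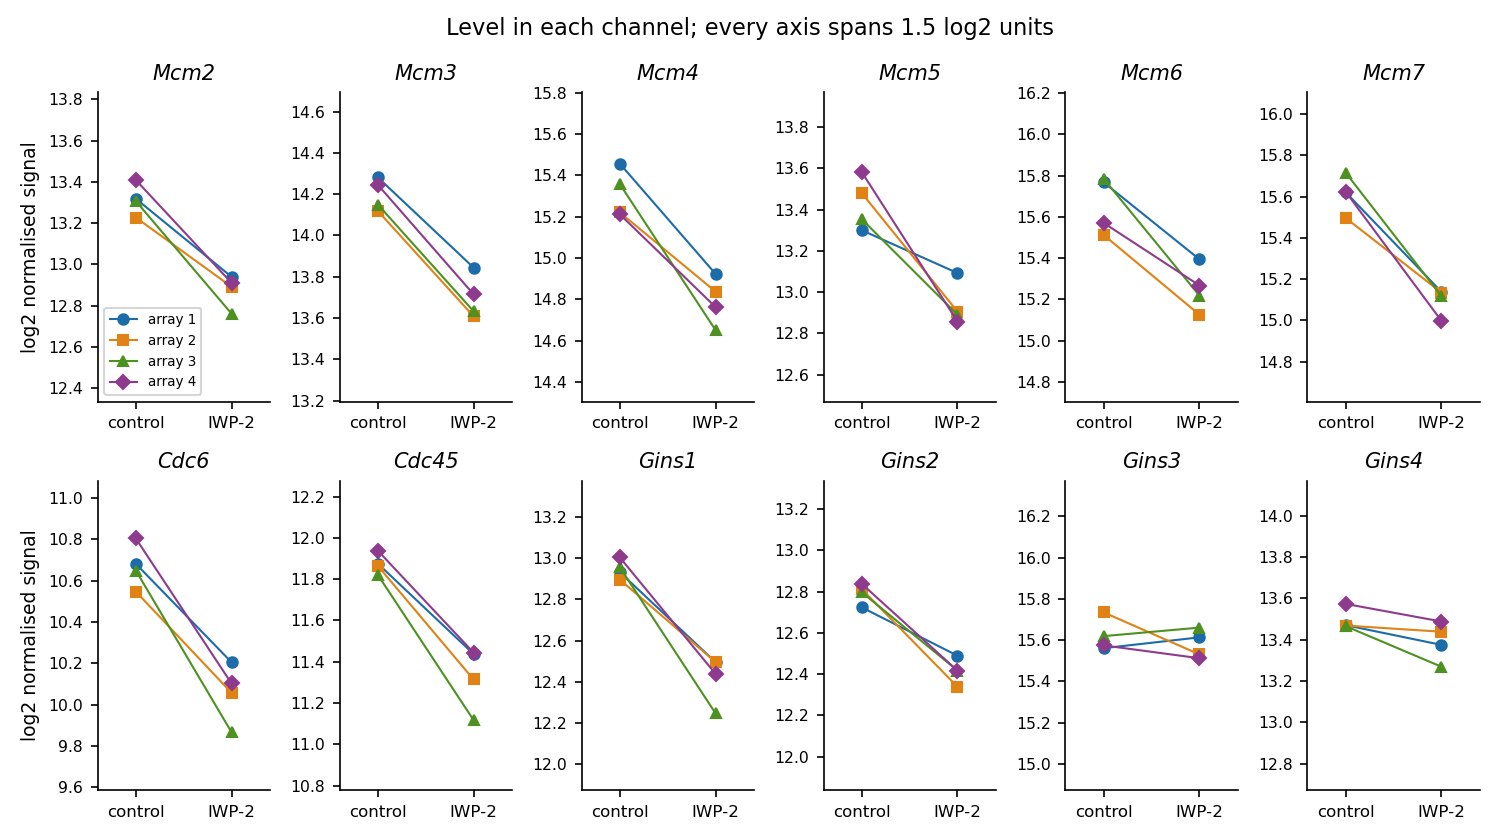
The log2 normalised signal (y axis) in the control and the IWP-2 channel of each of the 4 arrays, joined by a line per array, for the MCM2-7 genes, Cdc6, Cdc45 and the 4 GINS genes; every panel spans 1.5 log2 units around its own centre. The lines of Mcm2 to Mcm7, Cdc6, Cdc45, Gins1 and Gins2 all fall, while those of Gins3 go both ways and those of Gins4 are nearly flat.

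Of the genes that load MCM2-7 at origins 4 of 5 fell, by unequal amounts. Cdc6, the ATPase that joins ORC to bring in the helicase, showed the largest fall of all members by the probes used. Its probe at chr11:98782986-98783045 read 10.68, 10.55, 10.65 and 10.80 in the control channels and 10.21, 10.06, 9.87 and 10.10 in the treated ones, and its ratios of -0.48, -0.49, -0.78 and -0.70 had a mean of -0.61 (65.4% of control, 95% confidence interval 58.7% to 72.8%, adjusted p = 0.00114 in limma). In the order of all genes from the largest fall upwards it stood at position 390 of 22461. A second Cdc6 probe gave -0.56, a smaller fall than that of the second Rpa1 probe (-0.69).

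Orc1, the ORC subunit whose amount changes most over the cell cycle, fell to 72.0% of control, with ratios of -0.28, -0.50, -0.50 and -0.61. Orc6 fell to 84.5% and Cdt1, the partner of CDC6 in loading, to 84.6%. Orc2, a core ORC subunit, did not pass the test. Its ratios were -0.16, -0.022, -0.28 and 0.0021 (mean -0.11, adjusted p = 0.0803), with array 3 well below the others. The difference between Cdc6 and Orc2, chosen as the largest and smallest fall of this role, was -0.32, -0.47, -0.51 and -0.70 on the 4 arrays.

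The factors that activate the loaded helicase fell in part. Cdc45 fell to 68.5% of control (probe at chr16:18807449-18807508, ratios -0.44, -0.55, -0.70 and -0.49, adjusted p = 0.000887 in limma) and Mcm10, which helps CDC45 and GINS to start unwinding, to 71.3% (ratios -0.36, -0.46, -0.52 and -0.62). The 4 subunits of GINS, which stand in the complex in equal number, showed unequal values. Gins1 fell to 69.4% and Gins2 to 77.0% of control, both lower on 4 of 4 arrays and without overlap of the channels.

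Gins4 had ratios of -0.10, -0.03, -0.20 and -0.085 (mean -0.10, adjusted p = 0.104), and Gins3 had ratios of 0.052, -0.20, 0.041 and -0.062 (mean -0.043, 95% confidence interval 90.4% to 104% of control, adjusted p = 0.479). Both genes had channels that overlap, and Gins3 was above 0 on arrays 1 and 3 and below it on arrays 2 and 4, which carry the opposite dye order. No gene of all those tested passed the test of the dye term in limma, Gins3 included (adjusted p = 0.311). Arrays of the same dye order resembled each other more over the 43 genes (Pearson r of 0.915 and 0.797 across genes, which are not independent) than arrays of opposite order did (0.525 to 0.696). The same held over all genes tested, with 0.798 and 0.831 for the same order and 0.625 to 0.740 for opposite order. The difference between Cdc45 and Gins3, taken as the extremes of this role, was -0.49, -0.35, -0.74 and -0.43 on arrays 1 to 4. Each of these 2 genes has 1 probe.

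All 8 genes of the DNA polymerases and primase fell. The largest falls were those of Pole2 (67.5% of control) and Pole (72.6%), the accessory and catalytic subunits of polymerase epsilon, which extends the leading strand, and of Pola1 (71.6%), the catalytic subunit of polymerase alpha. Pole2 (probe within chr12:70307465-70308864) had ratios of -0.42, -0.52, -0.69 and -0.65, and Pola1 (probe at chrX:90550189-90550248) had ratios of -0.39, -0.49, -0.47 and -0.57, both without overlap between treated and control channels.

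The primase genes Prim1 and Prim2, whose products form 1 dimer that lays the RNA primers, fell to 81.5% and 80.3% of control. Their spreads were small, with an SD of 0.057 and 0.052 between arrays. Pold1 and Pold2, the catalytic subunit and an accessory subunit of the lagging-strand polymerase delta, fell to 82.0% and 87.4%. These were the only members that passed the test although their treated and control channels overlap. The ratios of Pold1 were -0.058, -0.24, -0.27 and -0.58 (SD 0.22), so that array 4 lay far below array 1. Pola2, the accessory subunit of polymerase alpha, fell to 88.1% with ratios of -0.15, -0.31, -0.14 and -0.14.

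The clamp gene and 4 of the 5 genes of its loader fell. Pcna, the ring that tethers polymerases to DNA, fell to 77.3% of control (probe at chr2:132075022-132075054, ratios -0.36, -0.31, -0.48 and -0.33, adjusted p = 0.00139 in limma). Of the 5 subunits of replication factor C, which opens the ring and places it on DNA, Rfc5 fell to 83.8%, Rfc3 to 87.8%, Rfc2 to 88.9% and Rfc1, the large subunit, to 90.9% with an adjusted p of 0.0411. Rfc4 missed the threshold, with ratios of -0.22, 0.004, -0.16 and -0.15 and an adjusted p of 0.0607 in limma. A second Rfc4 probe well above background gave -0.17, -0.13, -0.21 and -0.17, and with the mean of both probes Rfc4 passed (adjusted p = 0.0256 in limma). The difference between Pcna and Rfc4, the extremes of this role, was -0.14, -0.32, -0.32 and -0.18 on the 4 arrays.

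RPA binds single-stranded DNA as a trimer, and 2 of its 3 genes fell. Rpa1, the large subunit that makes most of the contact with DNA, gave ratios of -0.43, -0.56, -0.56 and -0.52 (probe at chr11:75113898-75113957) and fell to 69.9% of control (95% confidence interval 65.2% to 74.9%, adjusted p = 0.000443 in limma). Rpa2 fell to 78.3%, with ratios of -0.26, -0.40, -0.35 and -0.39. Rpa3, the small subunit, had ratios of -0.091, 0.12, -0.33 and -0.10 (SD 0.18, adjusted p = 0.240), with array 2 above 0 and array 3 farthest below it. On each array Rpa1 lay below Rpa3, with a difference of -0.34, -0.67, -0.23 and -0.43.

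Fen1, the nuclease that trims the flaps of Okazaki fragments, and Lig1, the ligase that seals them, fell to 82.2% and 80.6% of control. The 2 genes differed by 0.048, -0.034, -0.024 and -0.10 on arrays 1 to 4 (Lig1 minus Fen1), which is within the spread between arrays.

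The 4 genes of nucleotide supply fell too. Tk1, the S-phase thymidine kinase, fell to 69.0% of control with ratios of -0.33, -0.52, -0.49 and -0.80, lowest on array 4. Rrm2, the subunit that limits ribonucleotide reductase activity over the cell cycle, fell to 74.8% (ratios -0.38, -0.24, -0.67 and -0.40), its partner Rrm1 to 81.3% and the thymidylate synthase gene Tyms to 86.7%. Further Tk1 and Mcm3 probes well above background gave mean ratios of -0.46 and -0.49.

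Among the genes that act on the chromatin of new DNA, Uhrf1, which recognises hemimethylated CpG sites and brings DNMT1 to them, fell to 69.3% of control. Its ratios were -0.50, -0.32, -0.75 and -0.54, with array 3 lowest and array 2 highest. Chaf1a and Chaf1b, 2 subunits of the histone chaperone CAF-1, fell to 80.4% and 86.4%.

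More than 1 probe was present for 9 of the 43 genes, and the brightest was used. The 12 further probes comprised 11 well above background, all 11 with a mean below 0. The second Rpa1 probe gave -0.69 against -0.52 for the probe used, and a further, dim Chaf1b probe gave -0.032 against -0.21.

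The probes of these genes were bright, and brightness was set against the change. On the scale of the average log2 signal the members had a median of 13.2 and all genes one of 11.1, and 28 of the 43 members lay in the 3 brightest deciles (10 bins of equal size) of all genes. In the deciles that hold members, between 9.80% and 19.5% of all genes fell. Weighted as the members are spread over these deciles, 15.3% of all genes fell, against 88.4% of the members. Across the 43 members the change and the signal had a Pearson r of 0.131 (Spearman rho 0.154), given as a description of 43 genes measured on the same arrays.

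**Figure D3:**
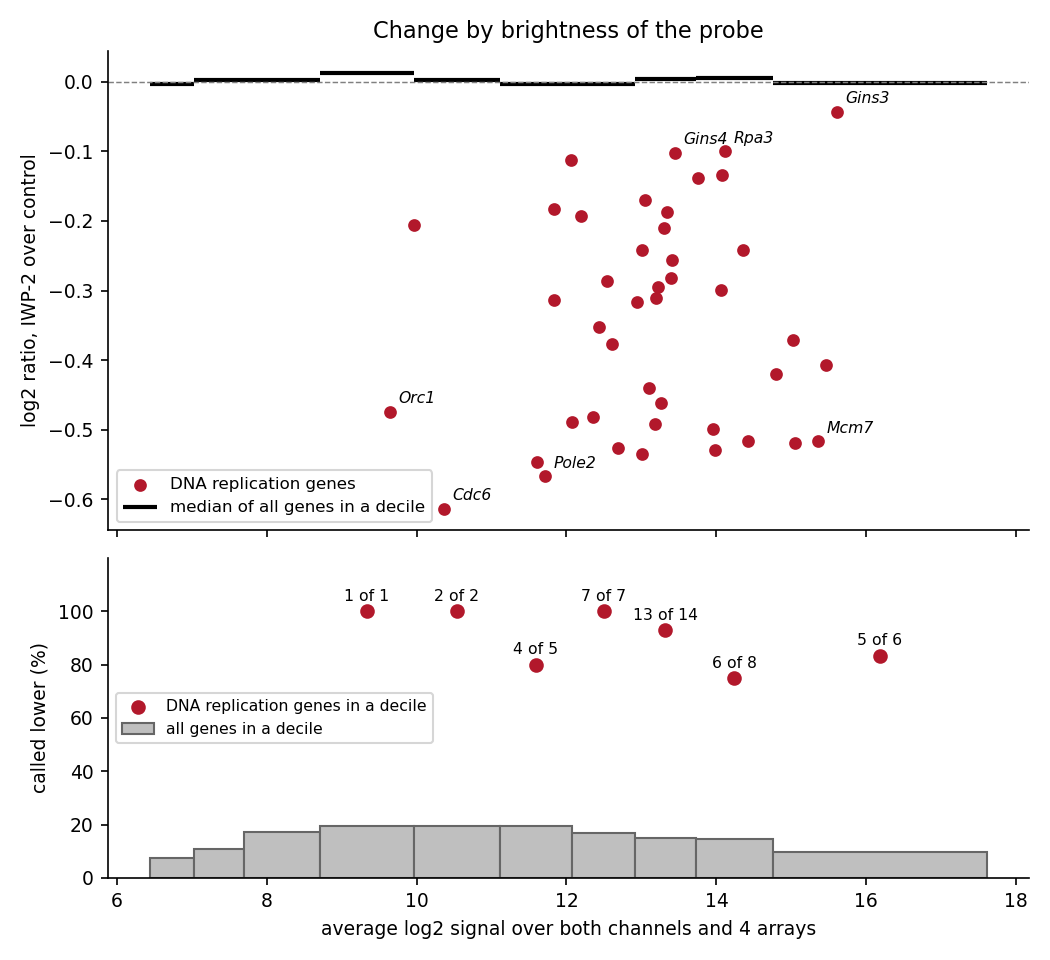
Top, the log2 ratio of IWP-2 over control (y axis) against the average log2 signal (x axis) for the 43 DNA replication genes, with the median of all genes in each decile of signal as black lines; bottom, the percent of genes called lower in each decile, as bars for all genes and points for the members, with their counts. The decile medians stay close to 0 while all members lie below it, and the lowest share of members called lower in a decile is 6 of 8.

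The remaining genes of the replication machinery, taken from a list that holds none of the 43, were counted by the same test. Of 30 other replisome and licensing genes 17 fell and 1 rose, with a median of -0.22. Among all genes tested 15.0% fell and 18.1% rose. The largest falls were those of Dscc1, part of an alternative clamp loader (63.9% of control), Clspn and Timeless, which protect moving forks (70.0% and 70.2%), Recql4 (74.3%) and Topbp1 (77.0%), which act in origin firing. The gene that rose was Pold4, a small subunit of polymerase delta (118%). Of 14 further genes of nucleotide supply and chromatin 10 fell and 1 rose. Hells, a chromatin remodeller, fell to 72.4%, the histone chaperone genes Asf1a and Nasp to 76.1% and 79.5%, and Dck, the gene of a nucleoside kinase, to 77.3%. The gene that rose was Rrm2b, the ribonucleotide reductase subunit used outside S phase (112%).

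Genes of repair and checkpoints that act in S phase fell in 10 of 13 cases, with a median of -0.25. Among all genes tested 15.0% fell and 18.1% rose. Exo1, an exonuclease of mismatch repair, fell to 66.7% of control, the recombination genes Brca1 and Rad54l to 75.4% and 79.0%, and the helicase gene Blm to 80.8%. Of the 20 genes of E2F, RB and the G1/S transition 10 fell and 2 rose. The largest changes included Skp2, part of the ligase that removes p27 (71.7%), and the cyclin E genes Ccne1 and Ccne2 (73.2% and 76.4%). Also among them were the activator E2f1 (73.9%) and E2f8 (76.7%), which encodes a repressor. The size for Ccne2 depended on the background correction. Its log2 ratio was -0.39 here, -0.53 with a normexp offset of 10 and -0.72 with the processed signals of the scanner software. Rbl2, the p130 gene of quiescent cells, and E2f7, another repressor gene, were the genes that rose (116% and 113%, adjusted p = 0.0392 and 0.0219 in limma). Genes that rose made up 10% of this list, less than the 18.1% among all genes tested.

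Regulators of G1 phase were among the genes that changed. Ccnd1 and Ccnd2, the D-type cyclins, fell to 58.3% and 58.5% of control, Myc to 70.4% and Mycn to 74.6%, while Cdkn1a, the gene of the CDK inhibitor p21, rose to 132% (log2 0.40, and 0.16 with the mean of all its probes). Cdkn1c, another CDK inhibitor gene, fell to 87.5% (adjusted p = 0.0393 in limma). In this list of 8 genes 5 fell and 1 rose, while 15.0% of all genes tested fell and 18.1% rose.

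Mitosis genes lay closer to 0 than replication genes on each array. Of 25 genes 10 fell and none rose in limma (12 and 0 at an unadjusted p under 0.05). Among all 22461 genes tested 3360 fell and 4069 rose (4553 and 5322 at the unadjusted p). The mitosis genes had a median of -0.086 and medians of -0.10, -0.0081, -0.13 and -0.14 on arrays 1 to 4, beside -0.26, -0.33, -0.37 and -0.39 for the 43 replication genes. The largest falls were those of Bub1 (80.8%), Aurkb (82.1%), Nuf2 (84.5%), Ttk (85.6%) and Top2a (86.4%), which act at kinetochores and in chromosome segregation. Bub1, Nuf2, Ttk and Top2a lost the call in some of the fits without 1 array, while Aurkb kept it. With the processed signals of the scanner software the log2 ratio was -0.42 for Aurkb and -0.29 for Bub1, beside -0.28 and -0.31 here. The 2 lists are compared by these counts and medians alone.

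**Figure D4:**
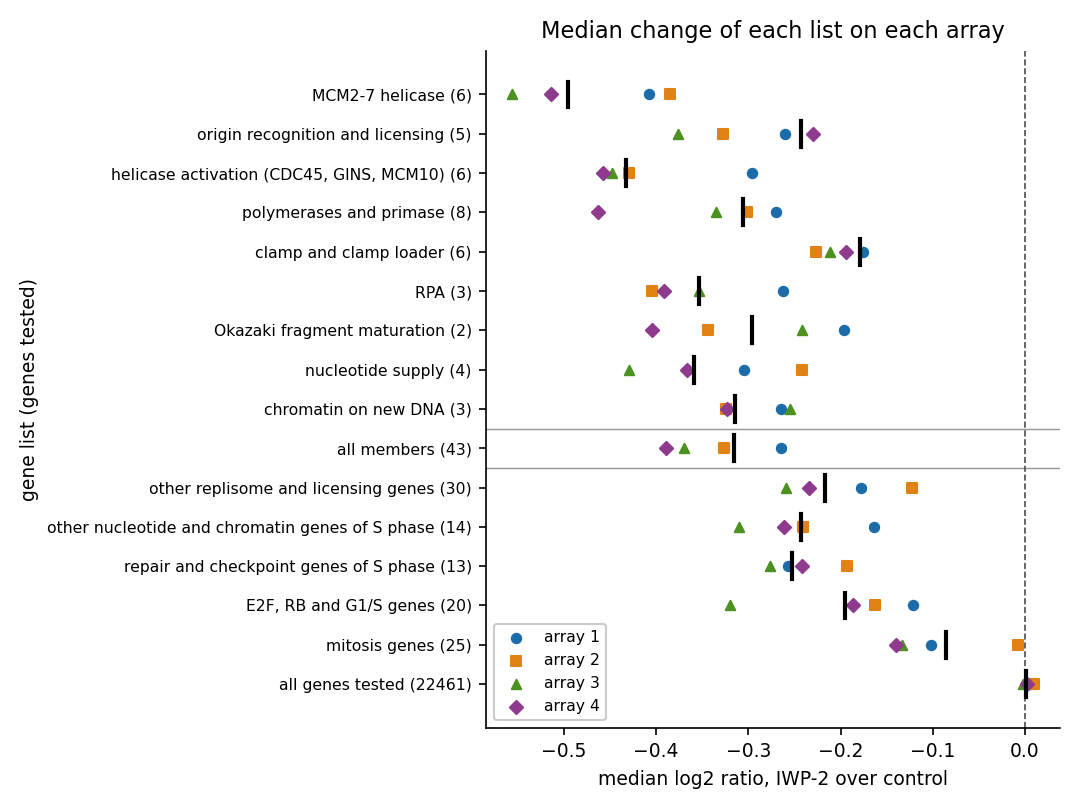
The median log2 ratio of IWP-2 over control (x axis) of each gene list (y axis, with the number of genes tested), with a point for each of the 4 arrays and a black tick for the median of the gene means. The MCM2-7 genes lie lowest at -0.50, the mitosis genes at -0.086 and all genes tested near 0.

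Markers of several cell types were higher in the treated pools. All 7 epithelial markers (Epcam, Cdh1 and keratin and claudin genes) rose, with a median of 0.30, and their summed signal was 179906 to 195169 in the control pools and 205264 to 255388 in the treated pools. Of the 6 mesenchymal markers 2 rose and none fell, while 18.1% of all genes tested rose. The 2 were Pdgfrb and Twist1 (log2 0.80 and 0.85), and Pdgfra, Col1a1, Col3a1 and Vim did not pass the test. The 6 mesenchymal markers had a summed signal of 340618 to 372056 in the control pools and 374572 to 412453 in the treated pools. Among 6 markers each, 4 rose for endothelium, 4 for red blood cells, 5 for macrophages and 2 for neural crest, none fell at an adjusted or unadjusted p under 0.05 in limma, and the medians lay between 0.18 and 0.27. Of 6 nephron progenitor markers 5 rose and 1 fell, and the largest changes were those of Six2 (log2 1.14) and Crym, which fell (log2 -0.96). Of the red blood cell markers that rose in limma, Hbb-y followed the dye order. Its ratios were 0.61 and 0.73 on arrays 1 and 3 but -0.10 and -0.14 on arrays 2 and 4. The summed signal of the red blood cell markers was 283286 to 430626 in the control pools and 404700.0 to 456881 in the treated pools, with overlap, and 2 of the 6 were higher on 4 of 4 arrays. That of the endothelial markers was 47325 to 55726 in the control pools and 54652 to 64214 in the treated pools, also with overlap. The sums for macrophages (12318 to 14993 in the control pools and 14586 to 17063 in the treated pools) and neural crest (37472 to 50506 in the control pools and 38296 to 58134 in the treated pools) overlapped too, and those for nephron progenitors (46205 to 50529.5 in the control pools and 51481 to 58673 in the treated pools) did not. Every marker of these lists was above background, those of the labelled tissue included. These levels changed in the same pools as those of the replication genes, and their part in the fall of the replication genes was not tested.

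The summed signal of the 43 replication genes was 617995 to 647940.0 in the control pools and 488455 to 529124 in the treated pools, with no overlap.

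Promoter sequences were available for 36 of the 43 genes (RefSeq, GRCm38.p6, the 250 bases before the gene start). They were searched on both strands for 3 spellings of the E2F site (TTTGGCGC, TTTCGCGC and TTCCCGCC), for the CCAAT box bound by NF-Y and for TTTGAA, the core of the cell cycle homology region found before mitosis genes. At least 1 E2F-type spelling stood in 9 of 36 promoters (25.0%), against 4.59% of the promoters of all 13326 genes tested that have one and 1 of 22 among mitosis genes. By spelling, TTTGGCGC stood in 3 of the 36 promoters (0.780% of all genes tested), TTTCGCGC in 5 (0.480%) and TTCCCGCC in 4 (3.45%). CCAAT stood in 24 of 36 promoters (39.4% of all genes tested, 18 of 22 mitosis genes) and TTTGAA in 5 of 36 (13.7% and 8 of 22). The median GC content of these windows was 61.2% for the members and 59.6% for all genes tested.

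The 9 promoters with E2F-type letters are shown because they hold the letters searched for and come from 6 of the 9 roles. They run 5′ to 3′ along the gene, in lower case with the E2F-type letters in capitals. For Mcm5 and Mcm6 the whole window is given, since spellings overlap there on opposite strands, and for the others the stretch around the match. In Prim1 the capitals share 2 bases with a CCAAT box. Mcm7, with CCAAT boxes in its promoters, and Cdc6, with none of the letters, fell without an E2F-type spelling in the window.
Mcm5 chr8:75109259-75109508 (plus strand): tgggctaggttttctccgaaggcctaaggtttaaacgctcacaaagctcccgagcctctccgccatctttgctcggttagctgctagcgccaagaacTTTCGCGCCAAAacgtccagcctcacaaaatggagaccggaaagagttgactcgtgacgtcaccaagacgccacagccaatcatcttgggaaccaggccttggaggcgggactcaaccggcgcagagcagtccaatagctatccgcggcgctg
Mcm6 chr1:128359706-128359955 (minus strand): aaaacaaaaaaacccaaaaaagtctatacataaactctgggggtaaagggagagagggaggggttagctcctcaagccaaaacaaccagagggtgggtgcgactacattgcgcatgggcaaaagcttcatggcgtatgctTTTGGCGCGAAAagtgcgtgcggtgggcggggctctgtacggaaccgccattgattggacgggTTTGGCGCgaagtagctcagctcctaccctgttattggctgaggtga
Orc1 chr4:108579401-108579453 (plus strand): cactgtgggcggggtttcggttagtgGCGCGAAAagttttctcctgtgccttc
Pola1 chrX:93632260-93632319 (minus strand): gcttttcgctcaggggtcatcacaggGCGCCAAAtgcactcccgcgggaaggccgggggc
Prim1 chr10:128015174-128015214 (plus strand): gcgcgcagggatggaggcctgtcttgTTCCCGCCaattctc
Rfc3 chr5:151651209-151651244 (minus strand): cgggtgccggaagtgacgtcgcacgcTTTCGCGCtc
Rrm1 chr7:102441602-102441661 (plus strand): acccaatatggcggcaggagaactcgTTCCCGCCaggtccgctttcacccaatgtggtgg
Chaf1a chr17:56040343-56040402 (plus strand): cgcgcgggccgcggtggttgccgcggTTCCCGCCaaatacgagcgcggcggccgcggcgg
Uhrf1 chr17:56303263-56303322 (plus strand): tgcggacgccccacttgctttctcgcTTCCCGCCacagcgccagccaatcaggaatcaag
Uhrf1 chr17:56304102-56304161 (plus strand): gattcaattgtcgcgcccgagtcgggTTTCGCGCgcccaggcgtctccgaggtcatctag

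In Mcm5 the first match begins 153 bases before the start and in Mcm6 110 bases before it. The 9 genes all fell, with changes between -0.53 (Uhrf1) and -0.19 (Rfc3) and a median of -0.41. Of the 27 genes with a promoter but no such letters 23 fell, with changes between -0.61 and -0.043 and a median of -0.29. The 2 sets thus overlapped over most of their range. A match of letters describes the sequence and does not show that a factor binds there.

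**Figure D5:**
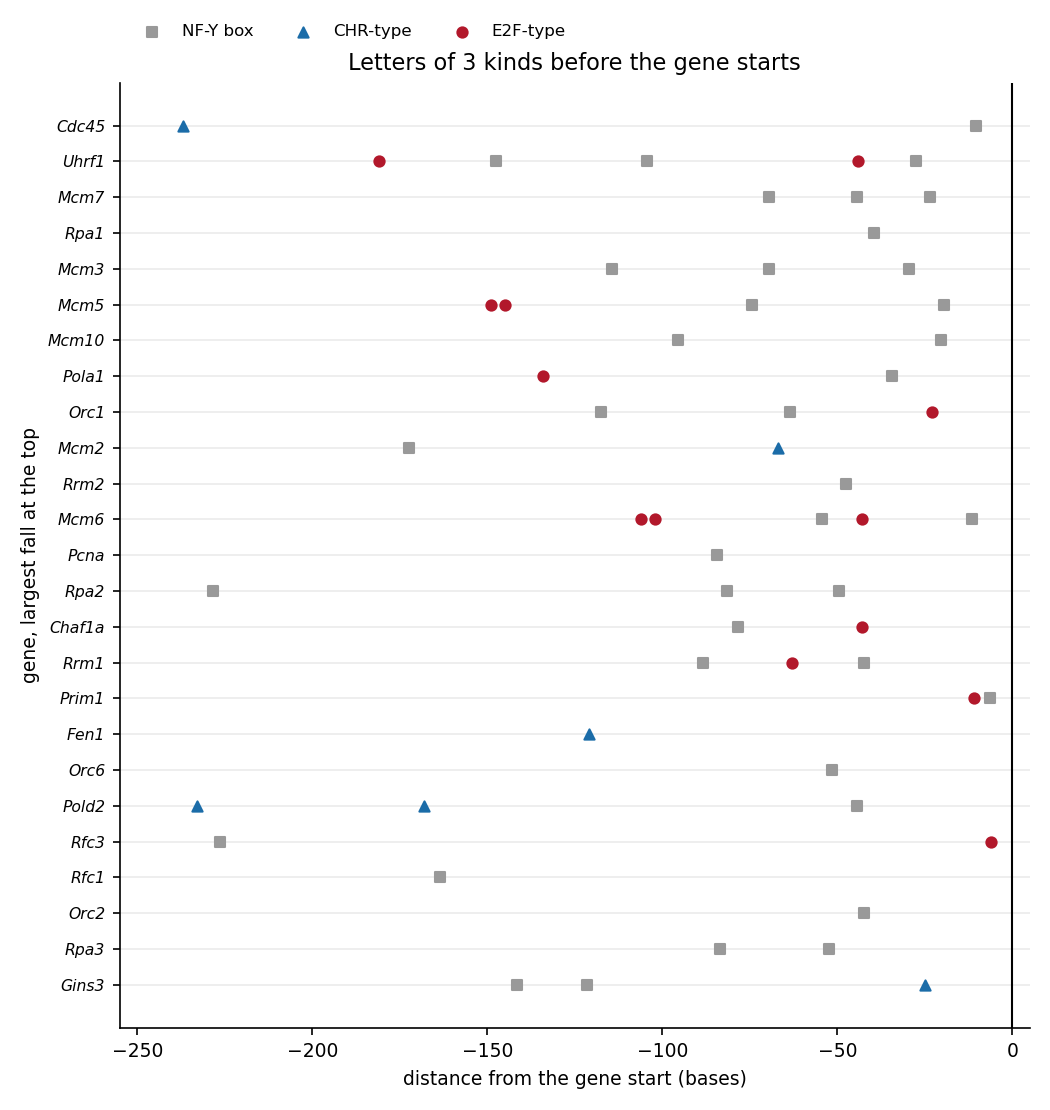
The distance from the gene start in bases (x axis) of each match to E2F-type letters (circles), the CCAAT box (squares) and TTTGAA, marked CHR-type (triangles), for the 25 DNA replication genes with at least 1 match (y axis, largest fall at the top). The E2F-type matches of 9 genes lie between 6 and 181 bases before the start and occur from Uhrf1 near the top to Rfc3 near the bottom.

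The study's own filter on intensity and fold change was applied here to all 4 arrays. With a processed signal over 100 in the brighter channel and a change over 2-fold on each of them, no member was counted. Of all 29924 gene names 105 were lower and 22 higher. At 1.5-fold on each array no member was counted either, and 207 of all gene names were lower and 109 higher.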

How the data were processed

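Total RNA of pooled E12.5 ureters was amplified, labelled with AlexaFluor555 (green) or AlexaFluor647 (red) and hybridised to 4 two-colour Agilent arrays, 1 treated against 1 control pool each. All arrays lay on 1 slide and were scanned once. The authors scanned them and ran Agilent Feature Extraction 10.7.3.1, and the deposited files give a raw mean intensity and a local background intensity per spot and channel, with probe positions on mm9. The deposited log10 ratio of processed red over green signal served to check the direction of each ratio. The deposited series table holds 1 signed fold change per probe and array, named a score here because its scale and normalisation are not stated by the authors. It served as an alternative.

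Mean intensities were corrected with normexp (offset 50, all spots) and normalised by loess (span 0.3) in limma 3.58.1 (R 4.3.3). Control spots and outlier spots were left out, and the 4 spots of a probe were averaged. Probes well above background in more than 0.5 of the spots of a probe, in at least 1 of the 2 groups on every array, were kept (29943 of 39429 probes). The brightest probe stood for a gene. Between 75.1% and 80.0% of the probes of a channel were above background, no spot was saturated, and the number of arrays limits the precision. Ratios were turned to treated over control and fitted with a dye term in limma, and eBayes p-values were adjusted by Benjamini-Hochberg. Channel levels come from Aquantile normalisation after loess. Pearson r between arrays across genes was 0.625 to 0.831.

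The 43 members and the other gene lists were chosen with earlier results of these data known. All members are named, and of each other list up to 5 genes past the test with the largest change, beside genes that moved against their list, which were chosen after their values were seen. Some genes of the other lists are counted but not reported by name here. Promoter windows came from RefSeq (GRCm38.p6), and Mcm4, Gins1, Gins2, Gins4, Pole, Prim2 and Rfc2 had no entry in that table. Summaries and figures were made with pandas 2.3.3 and matplotlib 3.10.9. The alternatives changed the background correction, the normalisation, the probe filter, the probe rule, the dye term, the eBayes settings, the source table and the arrays used.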

Additional observations from a re-analysis of the deposited data

Results flagged for a closer look

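Among 102 values checked for 1 array that stands apart from the other 3 (78 genes and 24 list medians), 1 was found, where chance gives about 5.1. It was Pola2, the accessory subunit of polymerase alpha, with a log2 ratio of -0.31 on array 2 beside -0.15, -0.14 and -0.14 on arrays 1, 3 and 4. All 4 values were below 0.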

How the results depend on the processing

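The number of members that fell was 38 and stayed within 1.5 times of that under 12 alternatives with 4 arrays (26 to 39). Aquantile normalisation leaves the ratios as they are and is not counted among them. The fits without 1 array also left out the dye term, and gave 29 to 32 members lower, beside 35 with 4 arrays and no dye term. In fits without 1 array that kept the dye term, chosen after seeing the data, 32 to 36 members were lower. No member rose under any of these alternatives, and the median of the members lay between -0.36 and -0.30. The lowest count, 26, came with the series table of fold changes, under which 12 called members lost the call. The 38 genes kept their direction in all 20 alternatives, and 24 of them kept the call too. Rfc1 was lost in 13, Rfc2 in 10, Pola2 in 9, Pold1 and Rfc3 in 7 and Pold2 in 6, in each case also in fits without 1 array. Gins3, which did not pass the test, changed sign without replicate 2 and without the dye term (0.011), but not with the dye term kept (-0.0076). Its values ran from -0.075 to 0.011 without 1 array and without the dye term, and from -0.078 to -0.0076 with it. Of the 35 genes that the naming rule took from other lists, 14 lost the call with the series table, Cdkn1a (adjusted p = 0.0904 in limma) among them, and 4 in fits without 1 array (Bub1, Nuf2, Ttk and Top2a), and none changed direction. Pold4, Rrm2b, Rbl2, E2f7 and Cdkn1c, named outside that rule, were not followed through the alternatives. Over all genes, 3360 were lower and 4069 higher. The series table gave 2050 and 1833, and the fit of 8 channels with no array block gave 2067 and 2039. Without 1 array and without the dye term, between 1618 and 2115 genes were lower and between 1863 and 2746 higher, beside 2551 and 2966 with 4 arrays and no dye term. Without 1 array and with the dye term kept, between 2177 and 2811 were lower and between 2879 and 3348 higher. The causes were not tested. No alternative moved the median of all genes by more than 0.022. The slide and scan block was not run because all arrays share 1 slide. No paired analysis was possible because the 4 arrays form 1 group of ratios, each of which already pairs a treated with a control pool.

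With 4 arrays, changes of the size of Gins4 (-0.10) or Rpa3 (-0.10) did not pass the test, which does not show that these genes kept their level.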
